A study of Mus musculus with 8 samples.

Results

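The genes described here are 44 interferon-stimulated effector genes of the mouse, the proteins that carry out the antiviral program that type I interferon switches on. They were chosen by name, as listed members of the Ifit, Oas, Parp, Ifitm, Ifi27, Mx and Isg15 systems and related effectors, and all 44 were found among the 47434 genes of the table. Poly-A RNA of Hepa 1-6, a mouse hepatoma line, was sequenced in 4 libraries labelled G9a knockout and 4 labelled wild type. G9a is the histone H3 lysine 9 methyltransferase encoded by Ehmt2. The labels name no treatment, such as added interferon, for either group. The labels give neither the way the gene was disrupted, nor the number of knockout clones, nor whether libraries came from separate cultures. The spread behind each p-value is therefore that between these libraries and may be technical, and a difference between the groups cannot be told apart from one between a clone and its parent line.

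Type I interferons bind the receptor IFNAR1-IFNAR2, whose kinases JAK1 and TYK2 phosphorylate STAT2. The complex ISGF3, which holds STAT2 and IRF9, then binds interferon-stimulated response elements in promoters. The target genes encode proteins that bind or cut viral RNA, edit or sense double-stranded RNA, block virus entry and budding, conjugate the ubiquitin-like protein ISG15, or add ADP-ribose. Many cells hold some of these genes at a low tonic level without added interferon, and hepatocytes are among the liver cells that answer it.

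The labelled knockout showed in its own transcript: Ehmt2 lay between 116.7 and 119.8 CPM in the knockout libraries and between 297.6 and 345.4 CPM in the wild type, a log2 fold change of -1.41 ± 0.05 (SE, adjusted p = 3.82e-10). CPM are counts scaled to a library total of 1e6 with the TMM factors of edgeR. Library totals lay between 58256100 and 75025236 counts, so that 3 counts, the level that a count of 0 allows, came to 0.04 to 0.0515 CPM (counting error only). Of the hepatocyte markers, Alb, Ttr, Hnf4a, Serpina1a and Cyp3a11 were listed at 0 in all 8 libraries and Afp was at 133.0 ± 11.9 CPM in the knockout and 5.77 ± 0.566 CPM in the wild type (SD, n = 4 each). The 8 fibroblast and stellate markers summed to 431 to 463 CPM in the knockout and 108 to 117 CPM in the wild type. Nearly all of this was Col3a1, at 429 ± 12.8 and 107 ± 4.83 CPM. Of the 6 of these markers that were tested, 5 rose and Pdgfrb did not pass the threshold, and Lrat was at 0. Of other cell types found in liver, the macrophage markers Adgre1, Itgam and Clec4f, the dendritic marker Siglech and the lymphocyte markers Cd3e, Cd3d, Cd4 and Ms4a1 were at 0 throughout. The 8 macrophage markers summed to 15.0 to 19.2 CPM in the knockout and 18.0 to 20.8 CPM in the wild type, and the 5 dendritic markers to 0.799 to 2.56 and 2.84 to 3.8 CPM. Flt3, at 1.61 ± 0.703 CPM in the knockout and 3.25 ± 0.329 CPM in the wild type, made up most of the dendritic sum. Flt3 fell (-1.02 ± 0.29, adjusted p = 0.011). The 8 lymphocyte markers summed to 1.52 to 2.42 CPM in the knockout and 1.51 to 2.2 CPM in the wild type. Most of this was Lck, at 1.71 ± 0.468 and 1.53 ± 0.338 CPM, with Cd79a at 0.338 ± 0.0986 and 0.224 ± 0.11 CPM. Among the macrophage list Ptprc, the leukocyte phosphatase CD45, rose from 0.437 ± 0.0459 to 1.08 ± 0.077 CPM (1.3 ± 0.26, adjusted p = 0.000984) and Cd14 fell (-0.52 ± 0.12, adjusted p = 0.00202). Cd68, at 6.7 ± 0.426 CPM in the knockout and 5.41 ± 0.97 CPM in the wild type, did not pass the threshold. Nor did Csf1r, at 0.715 ± 0.411 and 1.38 ± 0.787 CPM. The 6 endothelial markers summed to 4.84 to 6.03 CPM in the knockout and 2.54 to 3.57 CPM in the wild type, and Cdh5 rose (0.92 ± 0.15, adjusted p = 0.000229). In bulk RNA, fewer cells of a kind and less RNA per cell cannot be told apart. The part of these other markers in the results below was not tested.

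Most of the effector genes that could be tested were higher in the knockout, and 1 was lower. Of the 44 genes, 36 passed the filter on low counts. In edgeR's quasi-likelihood test with Benjamini-Hochberg adjustment over all 15840 genes tested, 27 of the 36 rose (adjusted p under 0.05), Adar fell, and Ifit1, Rsad2, Oasl1, Eif2ak2, Ifitm1, Ifitm2, Stat2 and Shisa5 did not pass the threshold. Over all genes tested, 47.2% changed by the same rule, 23.6% higher and 23.6% lower. A rise of at least 2-fold was called in 19 of the 36, against 7.89% of all genes, and a fall of at least 2-fold in 0, against 2.36%, with DESeq2 also giving 0 and no tested gene of the 36 below a log2 fold change of -0.17. The median log2 fold change was 1.03 for the 36 genes and 0.0 for all genes tested. In 25 of the 36 every knockout library lay above every wild-type library, as did 22.5% of all genes, and in 0 of the 36 every knockout library lay below, as did 21.4%. A gene can pass the filter through its high group alone: 31 of the 36 were over 0.148 CPM in all 4 wild-type libraries, and 23 of these rose, 1 fell and 7 did not pass the threshold. Ifit1, Ifit3, Isg15, Mx1 and Ifi27l2a were not, and 4 of these 5 rose. The remaining 8 genes, Ifit3b, Mx2, Oas2, Ddx60, Sp100, Rtp4, Samd9l and Ifi44, had too few counts for the test.

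**Figure D1:**
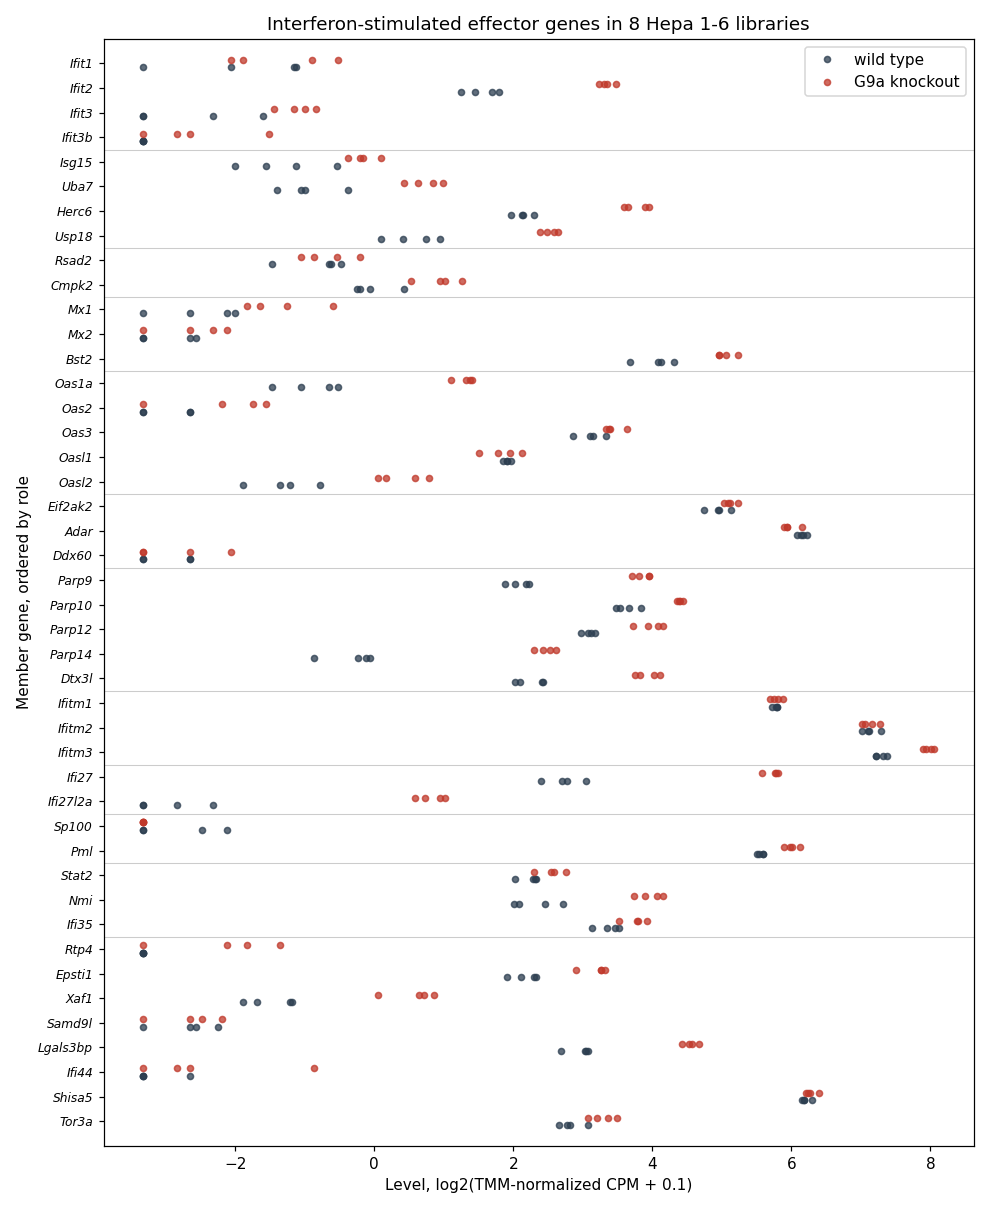
Level of each of the 44 genes in each library, as log2(TMM-normalized CPM + 0.1) on the horizontal axis, with the genes in rows ordered by role and separated by grey lines. Red points are the 4 knockout libraries and dark points the 4 wild-type libraries. The points of Ifi27, Parp14 and Lgals3bp stand apart by group, those of Ifitm1, Ifitm2 and Oasl1 are mixed, and the points at the left edge, as for Sp100 and Ifit3b, are libraries with 0 counts.

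The IFIT proteins are a family of RNA-binding proteins, of which IFIT1 binds the 5′ ends of foreign RNA and holds it back from translation. Ifit2 was the most abundant of the 4, at 11.1, 9.3, 10.1 and 9.81 CPM in knockout libraries 1 to 4 and at 2.64, 2.27, 3.12 and 3.37 CPM in wild-type libraries 1 to 4. The groups did not overlap, and the log2 fold change was 1.82 ± 0.13 (adjusted p = 1.35e-07). Ifit3 was at 0.4, 0.27, 0.35 and 0.46 CPM in the knockout and at 0, 0, 0.23 and 0.1 CPM in the wild type. Every knockout library was above every wild-type library, though the gene rested on 31, 19, 21 and 33 counts against 0, 0, 16 and 6. The log2 difference of Ifit3 was 2.14 ± 0.83 (adjusted p = 0.0499), and this call was lost without the low-count filter (adjusted p = 0.126) and on leaving out any 1 library other than wild type 3 (adjusted p up to 0.113). Without wild type 3 the value was 3.48 (adjusted p = 0.00917), and without wild type 2 it was 1.74. Ifit1, which recognises caps that lack methylation, had 0.17, 0.14, 0.44 and 0.6 CPM in the knockout and 0.36, 0.35, 0 and 0.14 CPM in the wild type. These ranges overlapped, and the value was 0.67 ± 0.79 (adjusted p = 0.526). Ifit3b, a near-copy of Ifit3, had 19, 4, 0 and 3 counts in the knockout libraries and 0 in every wild-type library. With 3 counts over the group as the limit of a 0 and the knockout counts taken as exact, the ratio was 8.58, and 3.2 without knockout library 1. The spread between libraries is not part of this ratio, so it is no lower bound. Reads of the Ifit3 copies may have been assigned to either gene.

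All 4 genes of the ISG15 system rose. ISG15 is a ubiquitin-like protein, UBA7 the enzyme that activates it, HERC6 the ligase that attaches it to proteins in mice, and USP18 the protease that removes it and also damps receptor signalling. Herc6 was the most abundant, at 14.8, 12.4, 15.4 and 11.97 CPM in the knockout and 4.29, 3.8, 4.26 and 4.81 CPM in the wild type, with a log2 fold change of 1.67 ± 0.11 (adjusted p = 8.19e-08). Usp18 stood at 5.9, 6.14, 5.11 and 5.49 CPM against 1.57, 1.82, 1.23 and 0.97 CPM, a change of 2.02 ± 0.18 (adjusted p = 1.22e-06). For Uba7 the levels were 1.88, 1.24, 1.45 and 1.7 CPM against 0.28, 0.38, 0.67 and 0.4 CPM, a change of 1.86 ± 0.30 (adjusted p = 0.000197). None of the 4 genes had overlapping groups. Isg15 itself was the least firm of them: 0.97, 0.77, 0.79 and 0.67 CPM in the knockout against 0.59, 0.15, 0.36 and 0.24 CPM in the wild type. The lowest knockout library was close to the highest wild-type library. The change of 1.26 ± 0.41 (adjusted p = 0.0212) was no longer called without knockout library 1 (adjusted p = 0.0644) or without wild-type library 4 (adjusted p = 0.0555).

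Cmpk2, a mitochondrial nucleotide kinase, rose, and its neighbour Rsad2 did not pass the threshold. Rsad2 encodes viperin, which makes a chain-terminating nucleotide from CTP. Cmpk2 was at 1.34, 1.82, 2.29 and 1.92 CPM in the knockout and 0.77, 0.74, 1.25 and 0.86 CPM in the wild type, without overlap (1.02 ± 0.25, adjusted p = 0.00401). Rsad2 was at 0.38, 0.45, 0.59 and 0.77 CPM against 0.26, 0.62, 0.55 and 0.54 CPM. The Rsad2 groups overlapped over most of their range (0.14 ± 0.38, adjusted p = 0.794), and its sign turned without knockout library 4 (-0.07) and without wild-type library 1 (-0.07). The counts of Rsad2 were assigned to the transcript Rsad2-202, annotated as a target of nonsense-mediated decay, and 0 counts to the protein-coding Rsad2-201. Counts per transcript are estimates, and how reads were divided between transcripts of 1 gene is uncertain.

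Bst2 encodes tetherin, a membrane protein that holds budding virus at the cell surface, and the Mx GTPases trap incoming viral particles. Bst2 was at 30.9, 31.1, 33.1 and 37.3 CPM in the knockout and 19.9, 12.7, 16.8 and 17.4 CPM in the wild type. The groups were apart, with a log2 fold change of 0.99 ± 0.11 (adjusted p = 1.06e-05). Mx1 was at 0.32, 0.56, 0.18 and 0.22 CPM against 0.15, 0, 0.06 and 0.13 CPM. The Mx1 groups were apart on few counts, 25, 39, 11 and 16 against 9, 0, 4 and 8. Its change of 1.96 ± 0.73 (adjusted p = 0.0405) lost the call without the low-count filter (adjusted p = 0.0991) and on leaving out any 1 library except knockout 3 and wild type 1, with adjusted p of up to 0.147. Mx2 had 8, 4, 8 and 0 counts in the knockout libraries and 4, 0, 4 and 0 in the wild type.

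The oligoadenylate synthetases make the second messenger that activates RNase L, whereas the OAS-like protein OASL1 restrains translation of Irf7. Oas1a was at 2.4, 2.05, 2.49 and 2.55 CPM in the knockout and 0.26, 0.54, 0.38 and 0.6 CPM in the wild type, and Oasl2 at 1.03, 1.63, 0.94 and 1.4 CPM against 0.29, 0.33, 0.48 and 0.17 CPM. Both had groups apart, with log2 fold changes of 2.40 ± 0.26 (adjusted p = 6.79e-06) for Oas1a and 1.96 ± 0.34 (adjusted p = 0.000394) for Oasl2. Oas3 was higher in CPM than either but moved little, at 10.2, 12.3, 9.95 and 10.4 CPM against 8.76, 9.99, 7.12 and 8.49 CPM. Its groups touched, since knockout library 3 was just under wild-type library 2, and the change of 0.32 ± 0.11 (adjusted p = 0.031) was lost on leaving out any of 4 single libraries: knockout 2, knockout 4, wild type 3 and wild type 4 (adjusted p of 0.0504 to 0.0954). Oasl1 was at 2.73, 4.25, 3.35 and 3.77 CPM against 3.51, 3.81, 3.65 and 3.65 CPM. The knockout libraries of Oasl1 lay on both sides of the wild-type libraries (-0.05 ± 0.15, adjusted p = 0.801). Oas2 had 9, 0, 12 and 17 counts in the knockout libraries and 0, 0, 4 and 4 in the wild type. Oas1a has near-copies on chromosome 5. Among them Oas1g had 1.13 ± 0.225 CPM in the knockout and 0.0671 ± 0.0924 CPM in the wild type (SD, n = 4 each), and how reads were divided between the copies is not stated.

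Of the 2 tested genes of double-stranded RNA handling, Adar fell and Eif2ak2 did not pass the threshold. Eif2ak2 encodes PKR, the kinase that stops translation when it meets double-stranded RNA. It was at 34.0, 37.6, 34.5 and 32.6 CPM in the knockout and 30.6, 35.1, 31.1 and 26.8 CPM in the wild type, with overlap (0.17 ± 0.08, adjusted p = 0.101). It was higher and passed the threshold under 4 alternative settings and without wild-type library 2 (adjusted p = 0.0202). Adar encodes the adenosine deaminase that edits double-stranded RNA and keeps the cell's own RNA from being sensed. It was at 59.4, 71.2, 60.9 and 60.8 CPM in the knockout and 74.4, 70.3, 67.7 and 71.7 CPM in the wild type. Knockout library 2 lay within the wild-type range and the other 3 below it. The fall of Adar (-0.17 ± 0.06, adjusted p = 0.0362) was lost when libraries were scaled by their totals (-0.09, adjusted p = 0.275), under both other filters (adjusted p of 0.0574 and 0.0867) and on leaving out any 1 library except knockout 2 and wild type 3, with adjusted p of up to 0.112. Its main transcript Adar-202 was at 44.6 ± 10.7 CPM in the knockout and 58.7 ± 9.02 CPM in the wild type, and Adar-203 at 15.7 ± 6.85 and 8.26 ± 7.77 CPM (SD, n = 4). Neither passed the test over transcripts, which called 11.3% of 37987 transcripts. The helicase gene Ddx60 had 5, 10, 0 and 0 counts in the knockout and 0, 0, 4 and 4 in the wild type.

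All 5 genes of the ADP-ribosylation group rose, each with its groups apart. Parp14, an ADP-ribosyltransferase of the macrodomain type, was at 5.69, 6.01, 5.3 and 4.81 CPM in the knockout and 0.75, 0.82, 0.45 and 0.86 CPM in the wild type (2.92 ± 0.20, adjusted p = 8.14e-08). Parp9 and its partner Dtx3l together form a ubiquitin ligase complex, and their genes lie head to head on chromosome 16. Parp9 was at 15.4, 15.4, 13.9 and 13.0 CPM against 3.57, 4.57, 4.45 and 3.95 CPM (1.80 ± 0.11, adjusted p = 2.25e-08). Dtx3l was at 14.0, 17.1, 13.3 and 16.1 CPM against 3.98, 4.18, 5.28 and 5.25 CPM (1.70 ± 0.12, adjusted p = 1.34e-07). Parp12, a zinc-finger member, went from 8.4 ± 0.49 CPM in the wild type to 15.7 ± 2.0 CPM in the knockout (0.91 ± 0.10, adjusted p = 6.9e-06). Parp10 went from 12.3 ± 1.41 to 20.9 ± 0.595 CPM (0.76 ± 0.08, adjusted p = 6.72e-06; SD, n = 4 throughout). Parp9 overlaps the antisense gene Gm15564 by 5854 bases. Gm15564 was at 0, 0, 0 and 2.73 CPM in the knockout and 2.41, 7.72, 5.97 and 0 CPM in the wild type, where its mean of 4.03 CPM was close to the 4.14 CPM of Parp9 (-2.54 ± 1.31, adjusted p = 0.132). Parp9 and Dtx3l overlap by 682 bases on opposite strands, and Parp10 overlaps the far more abundant Plec by 1401 bases on the same strand. Plec stood at 1040 CPM in the knockout and 992 CPM in the wild type (0.07 ± 0.08, adjusted p = 0.484). No source used here says whether counting used the strand, so reads in these overlaps are uncertain.

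Of the 3 IFITM genes, whose small membrane proteins block fusion of enveloped viruses, Ifitm3 rose while Ifitm1 and Ifitm2 did not pass the threshold. Ifitm3 was at 245.8, 236.8, 257.3 and 264.9 CPM in the knockout and 166.1, 148.3, 149.3 and 159.3 CPM in the wild type. The gap between the groups was wider than the range of either (0.69 ± 0.05, adjusted p = 2.15e-07). Ifitm2 was at 132.9, 129.3, 142.1 and 154.1 CPM against 156.1, 129.1, 138.0 and 137.1 CPM. For Ifitm1 the values were 51.5, 53.7, 58.6 and 55.9 CPM against 55.5, 52.8, 54.9 and 55.1 CPM. Both overlapped fully, with log2 fold changes of -0.01 ± 0.07 (Ifitm2, adjusted p = 0.96) and 0.01 ± 0.05 (Ifitm1, adjusted p = 0.908) whose signs turned under other scalings or without single libraries.

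The IFI27 genes encode small mitochondrial or nuclear envelope proteins and held the 2 highest fold changes of the 36 tested genes in this fit. They lie side by side at chr12:103434211-103440239 and chr12:103442167-103443680 (GRCm38, GENCODE release 21). Ifi27 was at 54.9, 47.7, 54.2 and 55.8 CPM in the knockout and 6.74, 8.14, 6.39 and 5.19 CPM in the wild type (3.0 ± 0.11, adjusted p = 4.61e-10). Every knockout library was several times the highest wild-type library. Most of its counts were assigned to the transcript Ifi27-205, at 35.3 ± 4.09 CPM in the knockout and 4.36 ± 1.21 CPM in the wild type (SD, n = 4). Ifi27l2a was nearly silent in the wild type, with 0, 0, 3 and 6 counts against 120, 97, 108 and 137 in the knockout. In CPM this was 0, 0, 0.04 and 0.1 against 1.56, 1.4, 1.82 and 1.92, a fitted log2 fold change of 5.52 ± 0.58 (adjusted p = 4.5e-06) that depends on how 0 counts are moderated and was 6.62 without wild-type library 4. Its relative Ifi27l2b also rose (0.866 ± 0.337 against 0.027 ± 0.0316 CPM, 4.91 ± 0.71, adjusted p = 7.57e-05), and reads of these close copies may have been assigned to either.

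PML and SP100 are the scaffold proteins of the nuclear bodies that bear the name of PML. Pml rose, at 63.2, 69.4, 64.0 and 59.5 CPM in the knockout and 48.3, 45.4, 48.3 and 46.4 CPM in the wild type, without overlap (0.44 ± 0.06, adjusted p = 2.14e-05). Its transcripts were less steady than the sum: Pml-207 was at 45.1 and 55.1 CPM in knockout libraries 1 and 2 but 13.0 and 13.7 CPM in libraries 3 and 4, against 5.58 to 10.5 CPM in the wild type (adjusted p = 0.0443 over transcripts). Sp100 had 0 counts in every knockout library and 0, 5, 0 and 8 in wild-type libraries 1 to 4. With 3 counts over the group as the limit of a 0 and the wild-type counts taken as exact, the ratio of wild type to knockout was 4.38. It was 2.23 without wild-type library 4. The spread between libraries is not part of this ratio either.

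STAT2 is the ISGF3 subunit that carries the activation domain, and NMI and IFI35 bind each other and join signalling complexes. Nmi rose from 3.92, 4.15, 6.46 and 5.38 CPM in the wild type to 13.2, 16.6, 17.7 and 14.8 CPM in the knockout, with the groups apart (1.64 ± 0.15, adjusted p = 1.42e-06). Its partner Ifi35 was at 13.6, 11.3, 15.1 and 13.7 CPM in the knockout and 10.9, 8.67, 11.4 and 10.1 CPM in the wild type. Knockout library 2 of Ifi35 fell just under wild-type library 3, and the change was 0.39 ± 0.11 (adjusted p = 0.00904). Stat2 was at 6.68, 5.91, 4.83 and 5.75 CPM against 4.85, 4.93, 4.75 and 3.97 CPM. Only knockout library 3 of Stat2 lay within the wild-type range. The value of 0.33 ± 0.13 missed the threshold in edgeR (adjusted p = 0.0528) and passed it in DESeq2 (0.33, adjusted p = 0.039).

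Among the other effectors, Lgals3bp, a secreted galectin-binding glycoprotein, was at 23.6, 21.4, 22.9 and 25.4 CPM in the knockout and 8.34, 8.05, 8.15 and 6.35 CPM in the wild type (1.60 ± 0.10, adjusted p = 2.78e-08). Xaf1, which promotes apoptosis by binding XIAP, was at 1.72, 1.47, 0.94 and 1.54 CPM against 0.34, 0.21, 0.33 and 0.17 CPM (2.41 ± 0.32, adjusted p = 3.95e-05). Epsti1 was at 9.5, 7.41, 9.45 and 9.88 CPM against 4.94, 4.84, 4.23 and 3.67 CPM (1.03 ± 0.13, adjusted p = 2.05e-05). The groups of all 3 genes were apart, as they were, narrowly, for Tor3a, an ATPase of the endoplasmic reticulum (9.7 ± 1.22 against 7.05 ± 0.902 CPM, 0.46 ± 0.12, adjusted p = 0.00595). Shisa5, an endoplasmic reticulum protein linked to p53-dependent apoptosis, was at 77.2, 75.1, 74.0 and 84.4 CPM against 78.1, 72.4, 72.2 and 71.4 CPM. Its groups overlapped through wild-type library 1 (0.08 ± 0.05, adjusted p = 0.261). Of the untested genes, Rtp4, a receptor chaperone, had 10, 20, 0 and 13 counts in the knockout and 0 in every wild-type library. The ratio with the same limit was 14.2, again without the spread between libraries. Ifi44 had 35, 3, 0 and 4 counts in the knockout, most of them in library 1, and 0, 4, 0 and 0 in the wild type. Samd9l had 6, 4, 7 and 0 against 4, 0, 4 and 7 counts, with overlap.

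**Figure D2:**
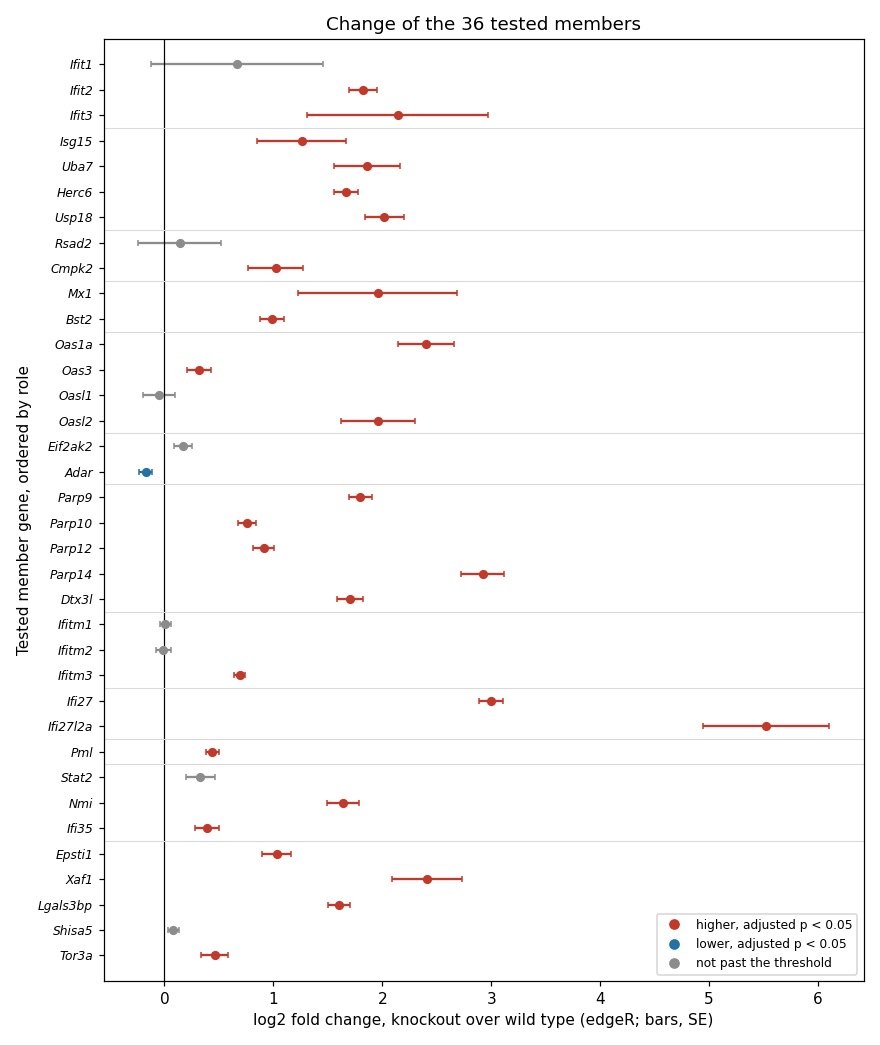
Log2 fold change, knockout over wild type, of the 36 tested genes on the horizontal axis, in rows ordered by role, with bars of 1 SE from edgeR. Red marks the 27 genes that rose, blue Adar, which fell, and grey the 8 genes that did not pass the threshold. Ifi27l2a, at 5.52, and Ifi27, at 3.0, lie farthest to the right.

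To compare levels between genes, counts were divided by transcript length and scaled to 1e6 (TPM). In the wild type the 44 genes spanned a wide range: 10 were at 10 TPM or more, 14 between 1 and 10 TPM and 20 under 1 TPM. Ifitm3 led with 446 ± 26.7 TPM, ahead of Ifitm2 with 415 ± 36.3, Ifitm1 with 144 ± 3.08, Shisa5 with 77.9 ± 5.04 and Bst2 with 40.8 ± 7.44 TPM (SD, n = 4). The ranges of Ifitm3 and Ifitm2 overlapped over the 4 wild-type libraries, whereas the steps from Ifitm2 to Ifitm1, Ifitm1 to Shisa5, Shisa5 to Bst2 and Bst2 to the next gene did not. Adar (27.1 TPM), Pml (24.6), Ifi35 (15.1), Eif2ak2 (14.8) and Ifi27 (14.2) followed. Over the whole order of levels, 36 of 43 neighbouring genes had overlapping wild-type ranges. In the knockout Ifi27 reached 118 ± 5.71 TPM, above Bst2 and Shisa5, and Ifi27l2a went from 0.144 ± 0.188 to 7.36 ± 0.865 TPM. At the bottom, 13 of the 44 genes stayed under 1 TPM in both groups, among them Ifit1, Ifit3, Mx1, Rsad2 and Oasl2.

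The rises were spread unevenly over these levels. Of the 12 tested genes under 1 TPM in the wild type, 10 rose, all by at least 2-fold, with a median log2 fold change of 1.96. Between 1 and 10 TPM, 12 of 14 rose, 8 of them by at least 2-fold, with a median of 1.32. At 10 TPM or more, 5 of 10 rose, 1 of them (Ifi27) by at least 2-fold, and 1 fell, with a median of 0.28. The share of all genes that rose by at least 2-fold, 7.89%, was not split by range. At low counts mainly large changes can pass the threshold, so the 2-fold counts cannot be compared between ranges. All tested genes showed a slope in the same sense, with medians of 0.46, 0.06 and -0.07 in the same 3 ranges, in which 25.2%, 27.3% and 21.1% were higher and 3.91%, 15.6% and 36.3% were lower. Spearman's rho between wild-type level and log2 fold change was -0.61 over the 36 genes and -0.31 over all 15840 genes. Both are descriptions, since level and fold change share the wild-type counts, and 5 of the 12 tested genes under 1 TPM (Ifit1, Ifit3, Isg15, Mx1 and Ifi27l2a) were not over the filter's cutoff in every wild-type library.

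**Figure D3:**
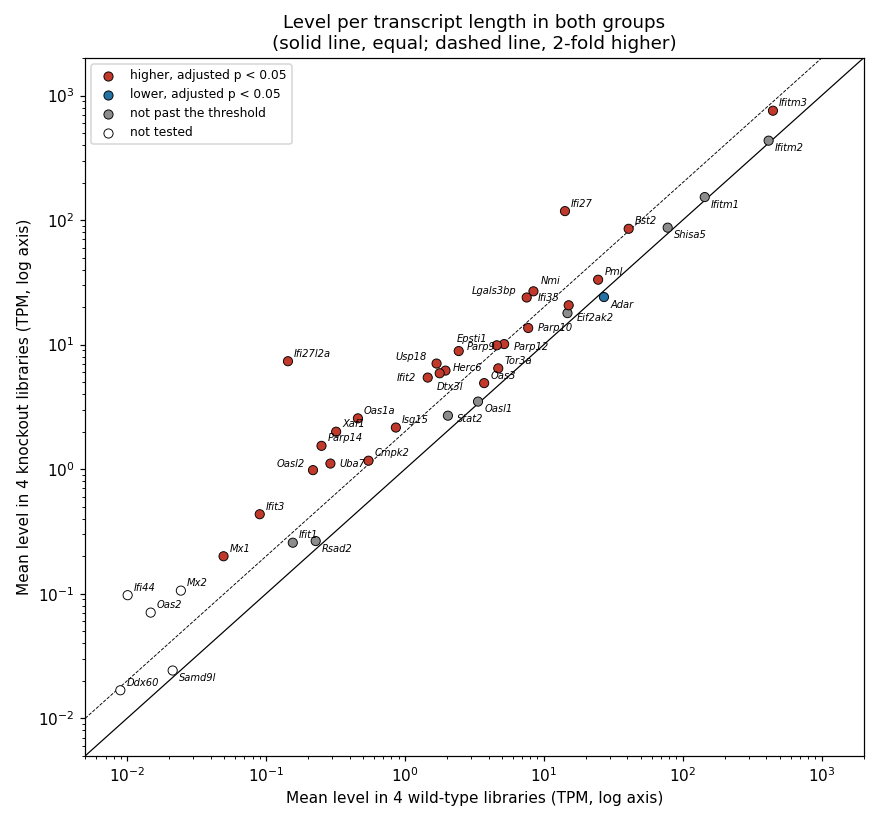
Mean level of each gene in the 4 wild-type libraries (horizontal) and the 4 knockout libraries (vertical), in TPM on log axes. The solid line marks equal levels and the dashed line a 2-fold rise. Ifit3b, Rtp4 and Sp100, at 0 in 1 group, cannot be drawn on a log axis. Most points on the left lie above the dashed line, whereas at the upper right Ifitm1, Ifitm2 and Shisa5 lie near the solid line and Ifi27 stands far above it.

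Several of the genes lie side by side, which allowed neighbours to be compared within each library. For the 13 pairs of tested genes closer than 200 kb, the log2 ratio of the 2 genes was compared between groups by an exact two-sided permutation test over the 4 and 4 libraries, in which the smallest possible p is 0.0286. In the Ifitm cluster at chr7:140954837-141010770, Ifitm2 lay 0.15 below Ifitm3 on the log2 scale in the wild type (a ratio of -0.15 ± 0.06) and 0.85 below in the knockout (-0.85 ± 0.05), a shift of -0.69. The ratio of Ifitm1 to Ifitm2 was -1.35 ± 0.09 in the wild type and -1.34 ± 0.09 in the knockout (p = 0.8 by the exact permutation test). So Ifitm3 parted from both neighbours, while the ratio between these neighbours moved by 0.01, within its spread. On chromosome 5, Oas1a gained 1.9 on Oas3, and Oasl2 gained on Oasl1, whose ratio to it fell by 1.77. On chromosome 16, Parp14 gained on both Parp9 (ratio of Parp9 to Parp14 changed by -1.01) and Dtx3l (ratio of Parp14 to Dtx3l changed by 1.11). The ratio of Parp9 to Dtx3l shifted by 0.1 (p = 0.486 by the exact permutation test), with SDs of 0.2 and 0.22. The 6 pairs Ifitm2-Ifitm3, Ifitm1-Ifitm3, Oas1a-Oas3, Oasl1-Oasl2, Parp9-Parp14 and Parp14-Dtx3l reached the smallest p, with no overlap between the groups. Adjusted over the 13 pairs this was 0.062, and 0 of 13 passed. With 0.5 CPM instead of 0.1 CPM added before the logarithm, a choice made after the data had been seen, 10 of 13 pairs had the smallest p and passed at an adjusted p of 0.0372, Ifi27-Ifi27l2a with the opposite sign. The same change shrank the shifts of Oas1a-Oas3 to 1.3, Oasl1-Oasl2 to -1.15, Parp9-Parp14 to -0.61 and Parp14-Dtx3l to 0.70. Ifitm2-Ifitm3 stayed at -0.69. Rsad2-Cmpk2 shrank to -0.66 and Ifit1-Ifit3 from -0.97 to -0.37. Other pairs with a low gene grew, Ifit2-Ifit3 from 0.25 to 1.07 and Ifit1-Ifit2 from -1.22 to -1.44. Ifi27-Ifi27l2a turned from -0.77 to 0.91. Ifit1, Ifit3 and Ifi27l2a were not over the filter's cutoff in every wild-type library. The ratios of Rsad2 to Cmpk2 (-0.82, p = 0.0571 by the exact permutation test) and of Ifit1 to Ifit2 (-1.22, p = 0.143, exact) rested on low counts of the first gene.

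Some of the genes sit in stretches of chromosome whose other genes shifted together. For 8 tested genes the median log2 fold change of the 50 nearest genes at 5 CPM or more was 0.2 or more in size. It was -1.01 around Mx1 on chromosome 16, -0.57 around Nmi on chromosome 2, 0.43 around Ifi27 and Ifi27l2a on chromosome 12, 0.34 around Oasl1 and Oasl2 and 0.22 to 0.23 around Oas1a and Oas3 on chromosome 5. Relative to these neighbours the rise of Nmi was 2.22 and that of Mx1 2.96 (adjusted p = 0.00518), both larger than before. Ifi27 still stood at 2.57, now below Mx1 and Parp14 (2.94), and Ifi27l2a at 5.10. Oas3 at 0.09 (adjusted p = 0.568) no longer passed the threshold, and Oasl1 at -0.39 (adjusted p = 0.0496) passed it as a fall. With every gene set against its neighbours in this way, 28 of the 36 genes rose and 2, Adar and Oasl1, fell. Among all genes, 6845 were called in either direction in this setting, against 7476 in the main test. Copy number was not measured, and the part of the chromosome shifts in these values was not tested.

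**Figure D4:**
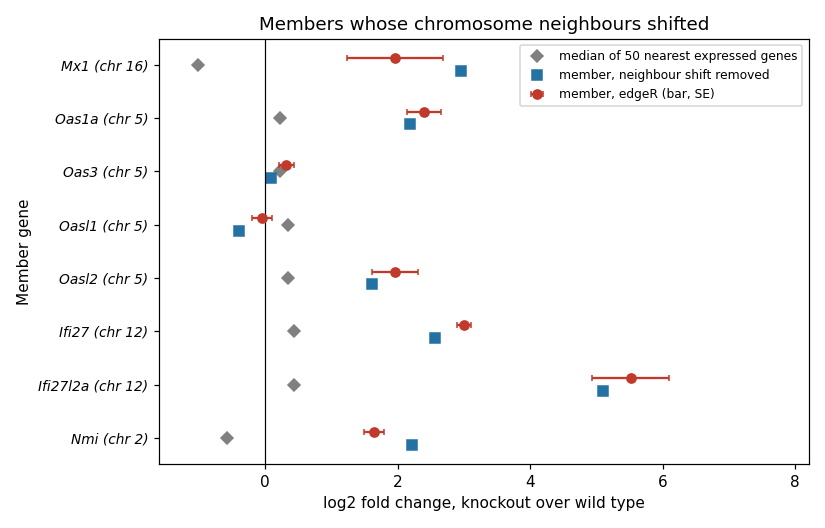
The 8 tested genes whose chromosome neighbours shifted by 0.2 or more, in rows. Grey diamonds give the median log2 fold change of the 50 nearest expressed genes, red circles the gene's own log2 fold change with bars of 1 SE, and blue squares the gene's value after the neighbours' median was taken off. Mx1 and Nmi move to the right, to 2.96 and 2.22, and Oas3 moves to 0.09, close to the line at 0.

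The genes that act before the effectors were listed beside them. Of 21 interferon ligand genes, 16 had 0 counts in all 8 libraries and 1, Ifnz, could be tested and did not pass (-0.02 ± 0.60, adjusted p = 0.986). The 21 summed to 0.0981 to 0.52 CPM in the knockout libraries and 0.222 to 0.333 CPM in the wild type, so the ranges overlapped. At this level the sums do not show whether any 1 ligand differed. Of 20 receptors, kinases and transcription factors of the pathway, 7 rose, 6 fell and 7 did not pass, with a median log2 fold change of 0.14. These counts are not far from the 23.6% higher and 23.6% lower of all genes, beside which the counts of the following lists also stand. The receptor genes Ifnar1 (-0.95 ± 0.06), Ifnar2 (-1.13 ± 0.11) and Il10rb (-1.34 ± 0.12), on chromosome 16, fell (adjusted p of at most 3.18e-06), and relative to their chromosome neighbours stood at 0.06, -0.13 and -0.34. Of 58 further interferon-stimulated genes, 43 were tested: 24 rose, 17 of them by at least 2-fold (7.89% of all genes), 5 fell and 14 did not pass, with a median of 0.29, beside the 1.03 of the 36 effector genes. Among them Trim12a (4.18 ± 0.25), Apol9a (2.29 ± 0.14), Slfn9 (1.02 ± 0.07) and Ly6e (0.83 ± 0.05) rose with adjusted p of at most 4.75e-08. Of 61 family relatives of the effectors, such as other PARP, STAT and ADAR genes, 41 were tested: 19 rose, 6 fell and 16 did not pass, with a median of 0.2. Stat5b (0.83 ± 0.07), Adarb1 (0.74 ± 0.07) and Stat3 (0.52 ± 0.05) were among those that rose. Adarb1 encodes another RNA-editing deaminase.

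Promoter windows from RefSeq (GRCm38.p6, 250 bases before to 50 after each annotated start) were found for 33 of the 44 genes. They were searched for the core of the interferon-stimulated response element, GAAA, any 2 bases and GAAA again, which reads TTTC, any 2 bases and TTTC on the other strand, and for TTCNNNGAA, the palindromic site bound by STAT dimers. The first occurred in 14 of 33 genes (42.4%) and in 3.99% of the 27025 genes with a window. TTCNNNGAA occurred in 8 of 33 (24.2%) and in 9.55% of all. A match is a run of letters and says nothing of binding. The response element core was found in 3 of 13 genes that rose by at least 2-fold (Ifit3, Isg15, Oas1a), in 3 of 6 that rose by less (Bst2, Oas3, Ifitm3), and in 6 of 8 that did not pass the threshold (Ifit1, Rsad2, Eif2ak2, Ifitm2, Stat2, Shisa5). Adar had none, and of 5 untested genes with a window Ifit3b and Ddx60 had it. A gene was counted when any of its windows held a match. Shisa5 had its match only in the window chr9:109054616-109054915, beginning 32 bases after that start, and none in its other windows. The match of Eif2ak2 begins 18 bases after its start. Genes that rose are shown first, followed by genes that did not pass the threshold. The core occurs in windows of both kinds, and missing the threshold does not show that a gene did not move. Each line reads 5′ to 3′ along the gene's strand, with the matches in capitals: chr4:156200850-156200921 (minus strand) for Isg15, chr5:120907526-120907570 (minus) for Oas1a, chr19:34583348-34583441 (plus) for Ifit3, chr19:34640760-34640838 (plus) for Ifit1, chr7:140955973-140956032 (minus) for Ifitm2 and chr12:26456538-26456597 (minus) for Rsad2.
Isg15: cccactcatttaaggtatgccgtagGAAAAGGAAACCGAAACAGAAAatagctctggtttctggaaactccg
Oas1a: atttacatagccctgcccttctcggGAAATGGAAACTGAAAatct
Ifit3: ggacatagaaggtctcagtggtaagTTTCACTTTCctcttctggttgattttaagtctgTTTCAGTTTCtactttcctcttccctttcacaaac
Ifit1: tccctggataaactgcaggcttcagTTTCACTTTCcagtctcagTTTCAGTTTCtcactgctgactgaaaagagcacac
Ifitm2: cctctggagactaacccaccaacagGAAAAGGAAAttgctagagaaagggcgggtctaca
Rsad2: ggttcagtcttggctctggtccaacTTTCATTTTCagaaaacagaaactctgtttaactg

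Isg15 holds 3 overlapping matches, which begin between 78 and 66 bases before the start, and Oas1a holds 2 that begin 20 and 14 bases before it. Ifit3 and Ifit1, of which the first passed the threshold and the other did not, both carry TTTCACTTTC followed by TTTCAGTTTC, with a wider gap in Ifit3. The 94 bases printed for Ifit3 are identical in Ifit3b (chr19:34607744-34607837, plus strand). Ifitm2, which did not pass, has GAAAAGGAAA 46 bases before its start. Ifitm3, which rose, has 2 matches, and these begin 2 and 19 bases after its start. Windows of Parp9, Parp14, Parp10, Usp18, Ifi27, Ifi27l2a, Mx1, Mx2, Oas2, Rtp4 and Tor3a were not analysed here.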

How the data were processed

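Poly-A RNA of 4 G9a knockout and 4 wild-type Hepa 1-6 libraries was sequenced. The authors deposited 1 table of estimated counts per transcript, whole numbers that are not normalized, as its values show. Per the submitters' processing notes, the tools were FastQC, Trimmomatic and HISAT2 and the assembly was GRCm38.p6, without versions or roles. The sources used here do not name the counting tool or its strand setting. Of 115220 transcripts, 114332 (99.23%) matched GENCODE mouse release 21 and were summed to 47434 genes. The other 888 held 0.148% to 0.17% of a library's counts and were left out.

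Groups were compared in R 4.3.3 with edgeR 4.0.16 and its two-sided quasi-likelihood test (TMM, filterByExpr with a minimum count of 10, genotype as the only term, Benjamini-Hochberg adjustment over all genes tested). Each SE was derived from the log2 fold change and the F statistic as |log2FC|/√F. DESeq2 1.42.0, RLE scaling, library totals, other filters, a replicate block, removal of the neighbours' shift and leaving out each library were the alternatives. Within a group, every pair of libraries differed beyond counting noise (the lowest chi-square was 10.94 per degree of freedom). TPM used annotated transcript lengths. Pair ratios used CPM + 0.1 and scipy 1.17.1. The ratios of Ifit3b and Sp100 without 1 library were chosen after seeing the data. The code was tested on simulated data.

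All 44 genes are accounted for. Values per library are given for genes called with at least a 2-fold change and at least 1 CPM in the higher group, for those under the filter and for the one that fell, and for other genes added after their values were seen. Of each surrounding list, up to 4 tested genes with the lowest p are named, except where one is not reported here. Oas1g, Ifi27l2b, Gm15564 and Plec were added because they share sequence with or overlap a gene described. The genes, lists and tests were chosen with earlier results of these data known.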

Additional observations from a re-analysis of the deposited data

Results flagged for a closer look

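In 72 groups of 4 libraries (36 tested genes in each genotype), 3 held a library far from the other 3 by Dixon's ratio of gap to range, past its 95% limit for 4 samples. Chance flags about 1 in 20 groups. Adar in the knockout had a ratio of 0.872, with library 2 at 71.15 CPM and the others between 59.35 and 60.85 CPM. Lgals3bp in the wild type had a ratio of 0.856, with library 4 at 6.35 CPM and the others between 8.05 and 8.34 CPM. Shisa5 in the wild type had a ratio of 0.847, with library 1 at 78.09 CPM and the others between 71.35 and 72.38 CPM.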

How the results depend on the processing

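The count of genes that rose was 27 and lay between 26 and 30 with DESeq2 (28), RLE scaling (28), library totals (30), no filter (26), the replicate block (27) and the neighbours' shift removed (28), and between 23 and 27 on leaving out 1 library. With a mean of at least 5 CPM, which left 22 of the genes, 18 rose, 9 of them by at least 2-fold, against 19 in the main test. Leaving out 1 library gave 15 to 18 by at least 2-fold. The count that fell was 1, and became 0 with library totals, with no filter and with a mean of at least 5 CPM, 2 with the neighbours' shift removed, and 0 to 1 on leaving out 1 library. Over all genes, 7476 calls in either direction became 7775 with DESeq2, 7433 with RLE scaling, 7285 with library totals and 7255 with the block. They became 7017 with no filter, 5786 with a mean of at least 5 CPM and 6845 with the neighbours' shift removed. Leaving out 1 library gave 6863 to 7659.

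Values near 0 turned sign. On leaving out 1 library, Rsad2 ran from -0.073 to 0.286, Oasl1 from -0.15 to 0.051, Ifitm1 from -0.018 to 0.038 and Ifitm2 from -0.057 to 0.049. Oasl1 became 0.027 with library totals, and Ifitm1 became -0.028 with the neighbours' shift removed. Ifitm2 became 0.002 with DESeq2 and with RLE scaling, 0.074 with library totals and 0.035 with a mean of at least 5 CPM. The Ifi27 to Ifi27l2a ratio became 0.910 with 0.5 CPM added. Eif2ak2 passed with library totals (0.248, adjusted p = 0.0215), a mean of at least 5 CPM (adjusted p = 0.0388), the block (adjusted p = 0.0402) and the neighbours' shift removed (adjusted p = 0.0413). Shisa5 passed with library totals (adjusted p = 0.0313) and the neighbours' shift removed (adjusted p = 0.0211). The cause of these changes was not tested.

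Libraries of the 2 groups share only a replicate number: deviations of same-numbered libraries correlated at -0.3, 0.08, 0.28 and 0.11. With the number as a block 27 genes rose and 1 fell, Mx1 (1.98, adjusted p = 0.095) was not called and Eif2ak2 was. Depth limits what can be said of the 8 genes that did not pass the filter on low counts.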
